A study of Caenorhabditis elegans with 2 samples.

Results

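The first piRNA cluster of Caenorhabditis elegans, chromosome IV from 4.5 to 7 Mb, held 3350 of the 83957 nuclear calls in the ranked list that sets both replicates of an SNPC-1.2 chromatin immunoprecipitation (ChIP-seq) against each other. A call is a candidate binding peak, and every call with its summit in the cluster was taken, whether or not it passed a threshold. The larvae were of strain RW12251, in which snpc-1.2 on chromosome III carries the tag TY1::EGFP::3xFLAG, inserted by CRISPR (allele st12251). Whole L4 larvae of 48 hours, synchronised as starved L1 larvae after bleaching, were immunoprecipitated with an anti-GFP antibody after sonication to 200 to 800 bp. There was 1 group of 2 biological replicates and no second condition, and no control library was analysed here. Comparisons were therefore made between calls, genes and stretches of one genome in the same animals. With no second group no test over samples was made, and values of both replicates are given instead. Whole larvae hold germline and somatic cells, and in which of them a call arose cannot be told apart.

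piRNAs are short germline RNAs that guide the Argonaute protein PRG-1 to foreign and other transcripts. In C. elegans most piRNA genes are separate tiny transcription units, crowded into clusters on chromosome IV, and many carry an upstream motif with the core word CTGTTTCA. SNPC-1.2 belongs by name to the SNAP complex (SNAPc). This complex is known for recruiting RNA polymerases to promoters of small nuclear RNA genes, and it also acts at piRNA genes.

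Each call carries a signal value from the authors' peak caller for the pooled call, and 1 for the overlapping call of each replicate. The irreproducible discovery rate (IDR) states how consistently a call ranked in both replicates, and a call with an IDR of at most 0.05 is named reproducible here. The values of 2 stretches are set beside the cluster, namely chromosome IV from 1 to 3.5 Mb, which has the same length of 2.5 Mb and 12 piRNA genes and is named the comparison region, and, where stated, the second piRNA cluster, whose calls ran from summit 13500033 to summit 17199369 of the same chromosome. The first cluster held the 5′ ends of 2816 piRNA genes and 482 protein-coding genes in Ensembl release 115.

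The sequences under the leading summits show what kinds of elements the calls marked. The first set gives windows of 151 bases around the summits of the highest tRNA, snoRNA and SL RNA members, with the bases of the gene in capitals, because genes of these kinds carried the highest signals. All sequences are RefSeq sequence of the build WBcel235 (ce11), written 5′ to 3′.
C09B9.t1, plus strand, chrIV:5038856-5039006: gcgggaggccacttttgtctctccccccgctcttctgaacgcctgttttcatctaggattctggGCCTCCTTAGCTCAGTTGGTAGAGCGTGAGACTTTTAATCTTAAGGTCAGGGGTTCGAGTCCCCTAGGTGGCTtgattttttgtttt
M03D4.78, minus strand, chrIV:6117861-6118011: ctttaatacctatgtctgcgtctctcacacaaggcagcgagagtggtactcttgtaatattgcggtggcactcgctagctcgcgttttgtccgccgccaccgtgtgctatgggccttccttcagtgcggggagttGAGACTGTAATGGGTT
sls-2.17, minus strand, chrIV:5317311-5317461: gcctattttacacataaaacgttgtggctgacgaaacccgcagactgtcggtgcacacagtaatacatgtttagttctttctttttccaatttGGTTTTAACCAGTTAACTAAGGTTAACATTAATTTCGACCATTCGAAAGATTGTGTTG

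The second set gives the 3 highest members within 250 bp of a piRNA 5′ end and of no protein-coding 5′ end. The first of them lay inside sls-2.19, annotated as a pseudogene, and capitals mark its bases. In the other 2 windows capitals mark the word CTGTTTCA, which stood 1 time in the window at 21ur-7377 and not in the window at 21ur-10115.
sls-2.19, plus strand, chrIV:5264860-5265010: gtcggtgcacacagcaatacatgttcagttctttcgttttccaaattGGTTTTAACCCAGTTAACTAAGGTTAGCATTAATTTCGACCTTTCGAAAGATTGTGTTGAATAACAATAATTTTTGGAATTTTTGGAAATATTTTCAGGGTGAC
21ur-7377, minus strand, chrIV:5265064-5265214: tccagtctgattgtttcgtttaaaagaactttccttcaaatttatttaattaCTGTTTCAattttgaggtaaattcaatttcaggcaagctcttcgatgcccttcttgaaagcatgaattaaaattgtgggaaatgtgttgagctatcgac
21ur-10115, plus strand, chrIV:5011040-5011190: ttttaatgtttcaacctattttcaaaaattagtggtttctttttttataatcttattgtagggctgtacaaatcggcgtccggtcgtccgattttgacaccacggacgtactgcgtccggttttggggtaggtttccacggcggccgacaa

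The third set gives the highest member within 250 bp of a protein-coding 5′ end, which lay at Y17G9B.5. It also gives the highest member with no annotated 5′ end within 250 bp, whose nearest gene is inx-7. Neither window held CTGTTTCA on either strand, so neither has capitals.
Y17G9B.5, plus strand, chrIV:4749991-4750141: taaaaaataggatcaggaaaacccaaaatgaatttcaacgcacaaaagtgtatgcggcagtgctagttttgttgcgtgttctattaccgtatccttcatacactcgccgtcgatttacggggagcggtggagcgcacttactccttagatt
inx-7 upstream, plus strand, chrIV:5946893-5947043: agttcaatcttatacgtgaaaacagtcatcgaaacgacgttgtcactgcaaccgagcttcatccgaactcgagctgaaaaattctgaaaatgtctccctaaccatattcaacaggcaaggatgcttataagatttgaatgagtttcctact

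The first cluster held more reproducible calls than the comparison region, while the median signal of these calls was close in both. Of its 3350 calls 315 were reproducible (9.40%, exact 95% interval 8.44 to 10.4), against 111 of 2967 (3.74%, 3.09 to 4.49) in the comparison region. Over all nuclear calls the share was 6.36%, and in the second cluster it was 1400 of 6657 (21.03%). In each replicate's own ranked list, made from the alignments of that replicate alone, the share was 6.20% in the cluster and 2.72% in the comparison region for replicate 1, and 7.02% and 2.65% for replicate 2. The IDR of such a list cannot compare the 2 replicates, so it is a different measure. Where an own list is cited, reproducible means an IDR of at most 0.05 within that list. The ratio of shares was 2.51 across replicates and 2.46 ± 0.262 over the replicates' own lists (SD, n = 2). Intervals on shares cover counting of calls only, since the sources give no read depth.

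The median signal of all calls was 28.9 in the cluster and 23.6 in the comparison region, a ratio of 1.23. Replicate 1 gave medians of 15.7 and 13.7, and replicate 2 gave 18.5 and 14.1, so the ratio was 1.23 ± 0.119 over the replicates (SD, n = 2). Among reproducible calls the medians were 83.4 in the cluster and 82.7 in the comparison region, with 42.7 in both for replicate 1 and 47.5 against 41.1 for replicate 2. The top of the range differed more than the middle. The highest member reached 2069, against 371 for the highest call of the comparison region, and 17 of the 100 highest nuclear calls lay in the first cluster, 0 in the comparison region and 67 in the second cluster.

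The replicates' signals had a Spearman rho of 0.40 over all 3350 members and 0.61 over the 315 reproducible ones, which are selected for concordant rank. These are correlations across calls of the same libraries and are given as descriptions. Replicate 2 was higher than replicate 1 at 59.1% of members and at 69.8% of reproducible members, with a median ratio of 1.15 and 1.14. Over all nuclear calls these shares were 54.1% and 61.7%, with ratios of 1.07 and 1.09. In the comparison region the shares were 53.9% and 56.8%. The replicates' summits were a median of 79 bp apart over all members and 36 bp apart over the reproducible ones.

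**Figure D1:**
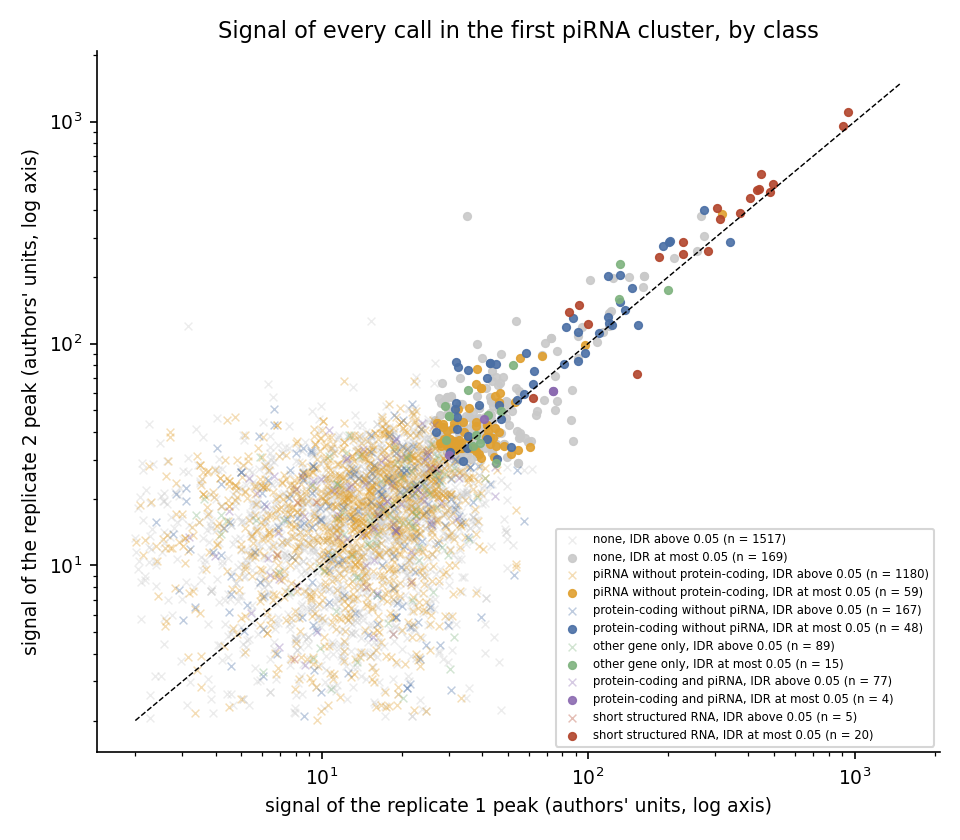
Signal of the replicate 1 peak (x axis) and replicate 2 peak (y axis), both in the authors' units on log axes, for every call in the first piRNA cluster, coloured by the gene class within 250 bp of the summit, with filled circles for an IDR of at most 0.05 and crosses for higher IDR. The dashed line marks equal values, and the points at the upper right are mostly short structured RNA genes, up to 949 in replicate 1 and 1108 in replicate 2.

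Genes for short structured RNAs carried the strongest members. Of the 10 highest members 9 lay within 250 bp of the 5′ end of a snoRNA, SL RNA, tRNA or snRNA gene, and the tenth lay in the pseudogene sls-2.19. Only 25 members fell in this class, and 20 of them were reproducible (80.0%, 59.3 to 93.2), with 76.9% in replicate 1's own list and 80.8% in replicate 2's. In the comparison region 9 of 15 were (60.0%, 32.3 to 83.7), so the intervals overlapped. The median signal of the reproducible members of this class was 706 in the cluster and 110 in the comparison region. These medians rest on 20 and 9 calls at different kinds of genes. The cluster had such calls at 7 tRNA, 6 snoRNA, 4 snRNA and 3 SL RNA genes. The comparison region had them at 6 tRNA, 2 snoRNA and 1 snRNA genes. Like genes were therefore not compared.

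snoRNAs guide chemical modification of other RNAs. The snoRNA gene M03D4.78 (IV, 6117751 to 6117876, minus strand) had a signal of 2069, with 949 in replicate 1 and 1108 in replicate 2, and its summit lay 60 bp upstream of the 5′ end. The 5′ end of zen-4, which encodes a kinesin of the central spindle, lay 279 bp from the same summit. T08B6.64 (IV, 4880738 to 4880850, minus strand) followed with 1874, and 905 and 953 in the replicates. Both genes were chosen by pooled signal, so values far above the cluster's median in each replicate follow in part from the choice. Of 10 snoRNA genes in the cluster 6 had a reproducible call within 250 bp of the 5′ end (60%, 26.2 to 87.8), against 2 of 6 in the comparison region. The share of nuclear snoRNA genes, 32.1%, lay within that interval. The other 4 of the 6 in the cluster were Y73B6A.14 at 730, ZK185.9 at 227, C06E7.95 at 222 and C17H12.36 at 209. Of the remaining 4 genes, K08F11.8, T19E7.29 and C01B10.48 had calls of 31.9, 32.8 and 7.55 that were not reproducible, and Y73B6A.15 had no call.

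tRNA genes carry their promoter inside the gene. Of 9 tRNA genes 7 had a reproducible call, against 6 of 8 in the comparison region and 73.4% of nuclear tRNA genes, a share near that background. The summits of these 7 lay 11 to 31 bp downstream of the annotated 5′ end, as the printed window of C09B9.t1 shows. C09B9.t1 had 1015 (495 and 525 in the replicates), Y73B6BL.t1 965 (483 and 481), B0350.t1 941 (440 and 498) and C43G2.t1 766 (373 and 387). Y4C6B.t1 had 567, Y4C6B.t2 476 and C43G2.t2 124.8, while Y73B6BL.t2 had a call of 12.7 that was not reproducible and Y17G9A.t1 had none. Each of the 4 highest had nearly equal values in both replicates. Only 61.8% to 66.7% of the 50-base words around those 4 summits occur once in the genome, so reads of near-identical tRNA copies could be shared among genes, and the effect on the values was not tested.

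SL RNAs donate the spliced leader in trans-splicing. The 3 SL RNA genes of the cluster, all SL2 genes by name, each had a reproducible call (100%, 29.2 to 100). The share of nuclear SL RNA genes, 50%, lay within that interval. sls-2.17 had 1045 (448 and 579 in the replicates), sls-2.12 had 873 (406 and 452) and sls-2.13 had 682 (312 and 364), with summits 7 to 19 bp upstream of the 5′ end. Around these 5′ ends 100%, 75.5% and 79.4% of the 50-base words occur once in the genome, and around the summits of sls-2.17 and sls-2.12 it was 89.2% and 68.6%. The pseudogene sls-2.19 (IV, 5264907 to 5265021, plus strand) had 732, with 319 in replicate 1 and 383 in replicate 2, and its summit lay 28 bp downstream of its 5′ end. The longest run of bases that sls-2.19 shared with an SL RNA gene of the cluster was 49, with sls-2.12, and the longest with sls-2.17 was 37. Every 50-base word around its summit occurred once in the genome.

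Of 5 snRNA genes, whose RNAs belong to the spliceosome and related particles, 4 had a reproducible call (80%, 28.4 to 99.5). The share of nuclear snRNA genes, 47.5%, lay within that interval. Y9C9A.111 (IV, 4930954 to 4931055, plus strand) had 925 (432 and 491 in the replicates), T08B6.62 had 510, Y17G9A.85 had 420 and smy-7, an SmY RNA gene, had 246. Y17G9A.90 had a call of 50.9 with an IDR of 0.104. Of the 50-base words around the 5′ ends of Y9C9A.111, T08B6.62 and Y17G9A.85, 68.6%, 64.7% and 64.7% occur once in the genome, against 96.1% at smy-7, so for the SL RNA and snRNA genes too reads of near-identical copies could be shared, and the effect was not tested. miRNA genes, which were not counted in this class, had weaker calls. Of 9 miRNA genes 3 had a reproducible call, with 70.4 at cel-mir-8202 and 1 shared call of 64.4 at cel-mir-58b and cel-mir-58c. This share was 33.3% (7.485 to 70.1), and that of nuclear miRNA genes, 11.1%, lay within the interval. In either replicate's own list 0 of 9 had a reproducible call. Of the other 6 miRNA genes 3 had a call that was not reproducible, of 10.9 to 54.9, and 3 had none.

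**Figure D2:**
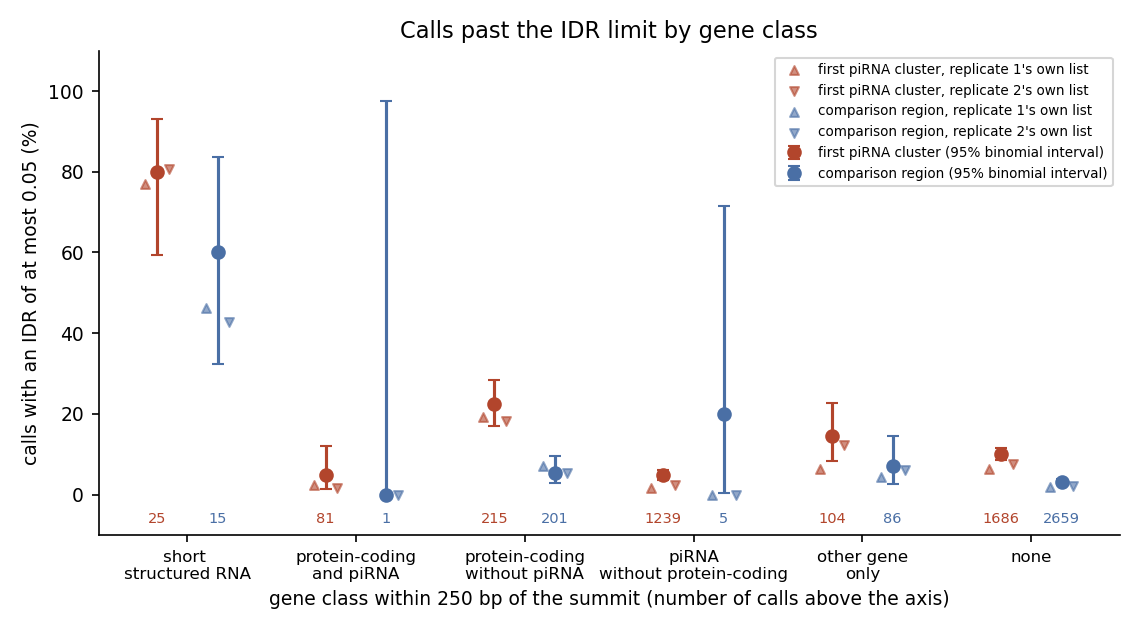
Share of calls with an IDR of at most 0.05 (y axis, percent) by the gene class within 250 bp of the summit, for the first piRNA cluster (red, left of each pair) and the comparison region (blue, right), with exact 95% binomial intervals, the number of calls above the axis, and each replicate's own list as triangles. Short structured RNA genes stand at 80.0% in the cluster, protein-coding 5′ ends without a piRNA gene at 22.3%, and piRNA 5′ ends without a protein-coding gene at 4.76%.

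Calls near protein-coding 5′ ends were reproducible more often in the cluster than in the comparison region. Of the 215 members with a protein-coding 5′ end and no piRNA 5′ end within 250 bp, 48 were reproducible (22.3%, 16.9 to 28.5), against 11 of 201 (5.47%, 2.76 to 9.58) in the comparison region. The replicates' own lists gave 19.3% and 18.1% in the cluster, and 7.14% and 5.23% in the comparison region. Counted by gene, 55 of 482 protein-coding genes had a reproducible call within 250 bp of the 5′ end (11.4%, 8.71 to 14.6), with 7.47% in replicate 1's own list and 8.92% in replicate 2's. In the comparison region 12 of 360 had one (3.33%, 1.73 to 5.75), and among all nuclear protein-coding genes 3.96% had one. The replicates' own lists gave 3.06% and 2.5% in the comparison region, so the cluster's share was higher in each list. The counting intervals did not overlap, but they cover counting only. Genes of the same 2 libraries are not replicates, so this is a description. In the second cluster the share was higher still, with 83 of 459 protein-coding genes (18.1%), and 10.5% and 12.9% in the replicates' own lists.

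The highest of these members stood upstream of the gene, as the printed window at Y17G9B.5 shows. The summit at Y17G9B.5 lay 174 bp upstream and had a signal of 665, with 273 in replicate 1 and 402 in replicate 2. W03F8.4 had 634 (341 and 287) with the summit 236 bp upstream, and tebp-2, a telomere protein gene, had 495 (202 and 288) with the summit 133 bp upstream. These 3 were chosen by pooled signal, so high values in both replicates follow in part from the choice. Where a piRNA 5′ end also lay within 250 bp, only 4 of 81 members were reproducible (4.94%, 1.36 to 12.2). The highest of these lay at hda-6, a histone deacetylase gene, with 139 (74.1 and 60.9), followed by the member at 21ur-4486 with 86.6 (40.7 and 45.8). Another of the 4, next to the hda-6 member, had a signal of only 7.76 and the same replicate values of 74.1 and 60.9. The third highest of the 81 members, at M03D4.4 with 72.4 (26.5 and 43.2), had an IDR of 0.0515 and was not reproducible.

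Calls lay near piRNA 5′ ends of the cluster more often than the share of bases, and few of them were reproducible. A piRNA 5′ end lay within 250 bp of 39.5% of members, while such windows cover 33.7% of the cluster's bases. Among reproducible members it did so for 66 of 315 (20.95%, 16.6 to 25.9), below the share of bases, with 11.5% in replicate 1's own list and 14.6% in replicate 2's (13.0% ± 2.18, SD, n = 2). In the second cluster the order was the other way round, with 71.3% of reproducible calls near a piRNA 5′ end against 61.2% of bases. There, replicate 1's own list gave 57.9% and replicate 2's 69.6%, so the replicates fell on both sides of the share of bases. Median distance to the nearest piRNA 5′ end in the first cluster was 2510 bp for reproducible members, 374 bp for the others and 582 bp over every base.

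Of the 1239 members near a piRNA 5′ end and no protein-coding one, 59 were reproducible (4.76%, 3.64 to 6.10). The replicates' own lists gave 1.56% and 2.33%. Of the 1686 members with no annotated 5′ end within 250 bp, 169 were (10.02%, 8.63 to 11.6), with 6.23% and 7.55% in the own lists. The median signals of these groups were close, with 28.3 near piRNA genes and 28.5 with no 5′ end near. Counted by gene, 1943 of 2816 piRNA genes (69.0%) had some call within 250 bp. This was below the 83.7% in the second cluster and above the 6 of 12 (50%) in the comparison region. Over all nuclear piRNA genes the share was 77.1%, but 9536 of those 11844 genes lay in the second cluster. A reproducible call stood at 108 (3.84%, 3.16 to 4.61). The replicates' own lists gave 0.781% and 1.88%. The share with a reproducible call was 24.6% of 11388 genes in the second cluster and 19.1% of nuclear piRNA genes. Of the 2942 nuclear piRNA genes with such a call 2796 lay in the second cluster, so the nuclear share mostly describes that cluster. The first cluster lay below both shares. In the comparison region 1 of 12 piRNA genes had a reproducible call, and piRNA genes outside both clusters were not counted as a group. Neighbouring piRNA genes share calls, so genes are not independent.

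The highest member of this class at a piRNA gene itself was the one at 21ur-7377 (IV, 5265097 to 5265117, minus strand), with a signal of 287 and 97.5 and 98.3 in the replicates. Its summit lay 22 bp upstream of the piRNA 5′ end, and the call had the same peak boundaries as the one in sls-2.19, whose summit was 204 bp away. The member at 21ur-10115 had 161 (67.3 and 88.1). Within 250 bp of a piRNA 5′ end, summits were spread on both sides. The 50 bases just upstream held 193 members, 9 of them reproducible, and the first 50 bases from the 5′ end on held 188, also with 9 reproducible.

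The word CTGTTTCA was searched on both strands within 75 bp of each summit. It stood in 16 of 315 windows of reproducible members (5.08%, 2.93 to 8.12), in 10.4% of the other members' windows and in 7.604% of adjoining windows of the same length that tile the cluster. In the comparison region these shares were 0.901%, 0.350% and 0.477%, and in the second cluster 21.2%, 17.16% and 13.4%. Among the 59 reproducible members near a piRNA 5′ end and no protein-coding one, 13 windows held the word (22.0%, 12.3 to 34.7), against 2 of 169 with no 5′ end near. The 59 lie near piRNA genes by definition, so this contrast cannot tell reproducible calls from others. Of all members with 21 to 50 piRNA 5′ ends within 5 kb, reproducible or not, 19.5% had the word. Of the cluster's piRNA genes 1133 (40.2%) had the word, on the strand of the gene, within 100 bases upstream, a median of 39 bases from the 5′ end. A reproducible call stood within 250 bp of 3.62% of these genes and of 3.98% of those without the word, with overlapping intervals of 2.61 to 4.88 and 3.10 to 5.03. A match describes letters only and is no site.

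Reproducible members lay near no annotated 5′ end about as often as the bases of the cluster did. The 169 with none within 250 bp made up 53.7% of the 315, a share near background. Such positions cover 55.2% of the cluster's bases and held 50.3% of all members. In the comparison region 84 of 2659 calls of this class were reproducible (3.16%, 2.53 to 3.90), against the 10.02% in the cluster. The highest lay 330 bp upstream of inx-7, which encodes a gap junction protein, at 672 (267 and 376 in the replicates), and its window is printed above. The next had 579 (272 and 307) and lay 1561 bp upstream of its nearest 5′ end, that of 21ur-3606. The third lay 311 bp upstream of sqd-1, an RNA-binding protein gene, at 506 (256.2 and 262.6). So 2 of these 3 lay just beyond the 250 bp limit of a protein-coding gene. Within 500 bp of a protein-coding 5′ end lay 95 of 315 reproducible members (30.2%, 25.1 to 35.6), against 18.1% of bases.

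The remaining class, with only another annotated gene such as a pseudogene or unclassified ncRNA within 250 bp, held 104 members, 15 of them reproducible (14.4%, 8.30 to 22.7). Its highest members were at the pseudogene K08F11.6 with 380 (199 and 174), the ncRNA gene K08F11.7 with 361 (132 and 228) and the ncRNA gene C31H1.98 with 285 (130 and 158). At the first 2 only 59.8% and 52.0% of 50-base words occur once in the genome.

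Among reproducible members, the largest gap between replicates was at a summit in rps-25, a ribosomal protein gene, with 35.2 in replicate 1 and 376 in replicate 2. This member drew on the same replicate 2 call as the one upstream of inx-7. The next 4 were within a factor of 3, with 38.2 and 99.9 upstream of lip-1, a MAP kinase phosphatase gene, 31.9 and 82.2 at F29B9.5, 88.0 and 36.4 upstream of sar-1, a GTPase gene of the secretory pathway, and 32.4 and 78.3 at T22D1.8. At 4 of the 5 replicate 2 was higher.

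The cluster was then divided into 10 bins of 250 kb, numbered from its left end. From bin 1 to bin 10 the piRNA genes numbered 2, 266, 358, 302, 458, 520, 420, 263, 115 and 112. All calls also peaked in bin 6, with 301, 283, 338, 364, 408, 419, 391, 338, 242 and 266. Reproducible calls numbered 29, 23, 30, 42, 41, 35, 25, 35, 30 and 25, with their highest counts in bins 4 and 5 and a count as low as that of bin 10 in bin 7, which has 420 piRNA genes. In the comparison region bins held 0 to 3 piRNA genes, 247 to 342 calls and 6 to 30 reproducible calls, and its bins 7 and 8 held 21 and 30 of them.

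Over the 10 bins the Spearman rho with the number of piRNA genes was 0.86 for all calls and 0.40 for reproducible calls. It was negative for the share of calls that were reproducible, at -0.38, and for the median signal of reproducible calls, at -0.55. For all calls in the replicates' own lists it was 0.82 and 0.87, but for the number of reproducible calls it was 0.01 and -0.02, near 0 in each list alone. Neighbouring bins share libraries and base composition, so these are descriptions. The median signal of a bin ran from 23.7 to 32.7 and had a rho of 0.37 with piRNA genes. Replicate 1's medians gave 0.13 and replicate 2's gave 0.81, and without bin 1, which has 2 piRNA genes, they gave -0.03 and 0.80. The relation of signal with piRNA genes was thus seen in replicate 2 and not in replicate 1. With the number of protein-coding genes per bin, the rho of all calls was -0.46 and that of median signal -0.66.

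**Figure D3:**
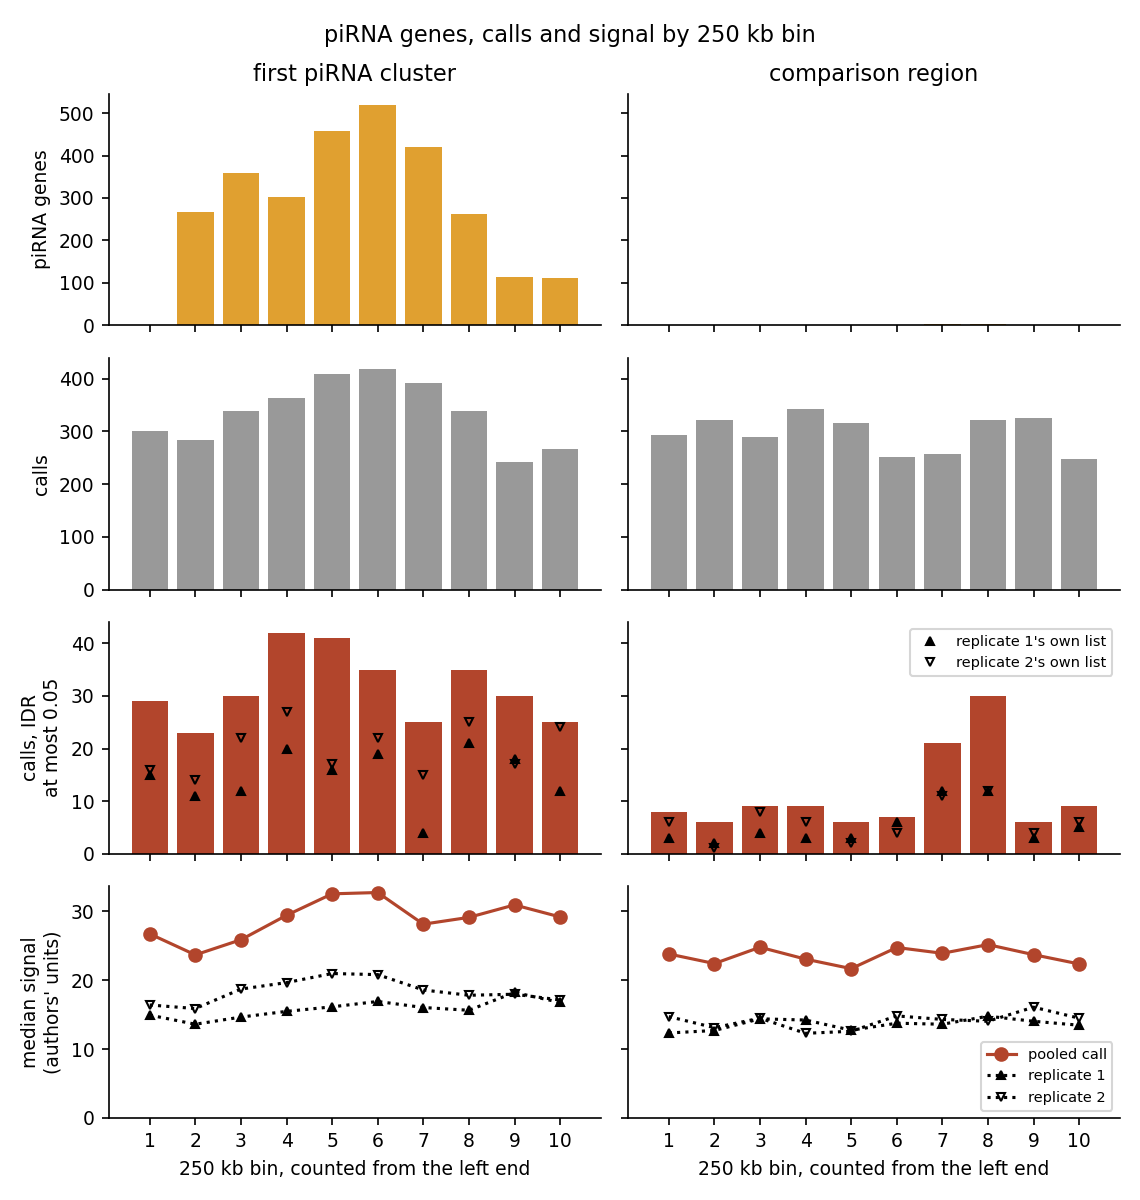
Number of piRNA genes, number of calls, number of calls with an IDR of at most 0.05 (bars; triangles for each replicate's own list) and median signal in the authors' units (pooled call and each replicate) in 10 bins of 250 kb, for the first piRNA cluster (left) and the comparison region (right). Calls in the cluster are most numerous in bin 6, with 419 calls and 520 piRNA genes, while reproducible calls are most numerous in bin 4, with 42.

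At a finer scale, reproducible calls were sparser where piRNA genes were dense. Members were grouped by the number of piRNA 5′ ends within 5 kb of the summit, which reached 48. With 0 such ends 95 of 635 members were reproducible (14.96%, 12.3 to 17.98). With 1 to 5 the share was 79 of 563 (14.03%), with 6 to 20 it was 84 of 1169 (7.19%), and with 21 to 50 it was 57 of 983 (5.80%, 4.42 to 7.45). Replicate 1's own list gave 9.52%, 10.6%, 5.10% and 2.39% in the same order, and replicate 2's gave 11.3%, 12.1%, 5.39% and 3.25%. Both lists thus gave their lowest share in the densest group.

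All calls ran the opposite way. Per Mb of sequence of each group there were 1173, 1189, 1338 and 1608 calls from the lowest to the highest density, and 175, 167, 96.1 and 93.2 reproducible calls. The median signal was 32.3, 30.7, 26.4 and 29.1, with 17.3, 16.9, 14.9 and 15.3 in replicate 1 and 20.4, 18.98, 17.22 and 18.9 in replicate 2. Among reproducible members it was 83.3, 93.3, 84.1 and 81.4. Over all members the rho of local piRNA genes with signal was -0.07, with -0.08 in replicate 1 and -0.05 in replicate 2, too weak to be a finding in itself. The share of members near a protein-coding 5′ end, where reproducible calls were frequent, moved with density as well and was 11.5%, 10.1%, 6.16% and 1.32%; its part in the result was not tested.

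In the second cluster the shares were 16.5%, 11.9%, 16.7%, 22.2% and 25.6% for 0, 1 to 5, 6 to 20, 21 to 50 and over 50 ends. The clusters had close shares at 0 ends, with 14.96% in the first and 16.5% in the second, and differed at 21 to 50 ends, with 5.80% in the first and 22.2% in the second. Per Mb of sequence they differed at 0 ends too, with 1173 calls in the first and 1821 in the second, and 175 and 300 reproducible calls. At 21 to 50 ends there were 93.2 and 412 reproducible calls per Mb. For the shares at that density replicate 1's own list gave 2.39% and 11.7%, and replicate 2's gave 3.25% and 16.2%. Within the second cluster replicate 1's own list gave 10.7% at 0 and 10.4% at over 50 ends and replicate 2's gave 12.9% and 19.5%, so its rise with density was not seen in replicate 1.

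Base composition moved with density in the first cluster. The median GC content within 75 bp of the summits was 40.4%, 38.4%, 33.8% and 31.8% from the lowest to the highest density. Members were split at their median GC content of 35.1%. Among members at or below it the reproducible share was 10.8% at 0 ends and 3.81% at 21 to 50, and among those above it was 16.8% and 10.3%. At or below the median the intervals, 6.79 to 15.99 at 0 ends and 2.501 to 5.53 at 21 to 50, did not overlap, while above it they did, with 13.4 to 20.7 and 7.13 to 14.4. At 1 to 5 and 6 to 20 ends the shares were 8% and 3.02% at or below the median GC content, and 17.4% and 13.3% above it. The share therefore did not fall at every step on either side: it was lower at 6 to 20 ends than at 21 to 50 at or below the median, and higher at 1 to 5 ends than at 0 above it, each with overlapping intervals. With bin 1 left out the ratio of the 21 to 50 share to the share at 0 was 0.31, against 0.39 with it.

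**Figure D4:**
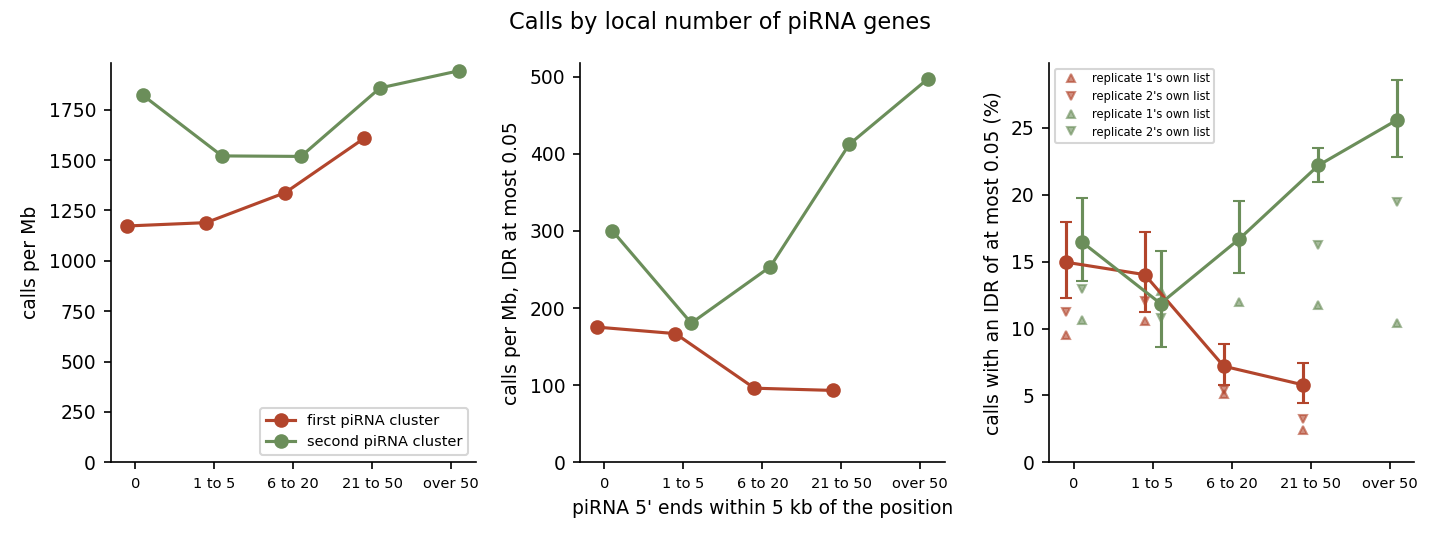
Calls per Mb (left), calls per Mb with an IDR of at most 0.05 (middle) and the share of calls with an IDR of at most 0.05 in percent (right, with exact 95% binomial intervals and each replicate's own list as triangles) by the number of piRNA 5′ ends within 5 kb, for the first (red) and second (green) piRNA cluster. In the first cluster calls per Mb are 1173 at 0 ends and 1608 at 21 to 50, while the share is 14.96% and 5.80%; no call of the first cluster has more than 50.

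Calls at the limits of the rule are given last. The 3 just inside the left edge had 2.54, 22.1 and 11.0, and the 3 just outside it 34.1, 14.4 and 30.9, all in or next to gbb-2, a GABA-B receptor subunit gene, and nearest to the 5′ end of the ncRNA gene ZK180.17. At the right edge the 3 inside, in or next to prkl-1, had 27.7, 13.7 and 36.3, and the 3 outside, near C25A8.5 and the chitinase gene cht-3, had 23.5, 27.4 and 36.1. None of these 12 was reproducible. At the IDR limit the 3 members just inside, at smg-7 (a nonsense-mediated decay gene), 21ur-1991 and Y4C6B.1, had signals of 62.5, 55.0 and 64.0, and the 3 just outside, nearest to 21ur-10718, ZK616.2 and linc-29, had 57.6, 63.6 and 40.2.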

How the data were processed

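Peak lists of 2 samples, biological replicates 1 and 2 of 1 group, were used as deposited on ce11, the same build as WBcel235. Per the notes deposited with the files, the calls derive from filtered alignments with a control library and were ranked by IDR. No aligner, peak caller or signal scale is stated in the sources. The signal value of each call and its −log10 IDR, with a cap of 5, are the authors' values as deposited. Of 2 whole-series ranked lists, the one comparing true replicates was identified from its entries: 66.3% of its first set and 72.9% of its second stood unchanged in the own list of replicate 1 and of replicate 2, and 0 crosswise. Its signals for each replicate were read accordingly. Read depth is unknown. Columns of samples outside the labels numbered 0.

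Python 3.11.15 with pandas 2.3.3, numpy 2.4.6, scipy 1.17.1 and matplotlib 3.10.9 was used. A gene was near a call when its annotated 5′ end (Ensembl release 115) lay within 250 bp of the summit. Classes were assigned in the order short structured RNA, protein-coding with or without piRNA, piRNA, other and none. Shares carry exact 95% Clopper-Pearson intervals. Bins were 250 kb and local density counted piRNA 5′ ends within 5 kb. Alternatives were other IDR limits, windows, bins and lists, and each replicate left out. The named members were the 10 highest, the 3 highest of each class, the structured RNA genes, 3 on each side of each limit and the 5 whose replicates differed most. Members, lists and bands were chosen with earlier results of these data known. Procedures were tested on simulated positions and signals.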

Additional observations from a re-analysis of the deposited data

How the results depend on the processing

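With 1 replicate left out, values come from the other replicate's own ranked list, whose IDR is a different measure. The number of reproducible calls in the cluster, 315 across replicates, was 180 at an IDR of at most 0.01 and 431 at one of at most 0.1, 181 in the whole-series thresholded list and 148 to 199 with 1 replicate left out. The ratio of shares to the comparison region, 2.51, was 1.60 against chromosome IV outside both clusters, and 2.28 to 2.65 with 1 replicate left out. The ratio of median signals, 1.23, was 1.01 among reproducible calls and 1.11 to 1.23 with 1 replicate left out. The share of reproducible calls near a piRNA 5′ end, 20.95%, was 11.5% to 14.6% with 1 replicate left out, 23.2% in the other whole-series ranked list, 16.1% and 25.1% at IDR limits of 0.01 and 0.1, 13.8% in the thresholded list, and 13.0% and 27.3% with windows of 100 and 500 bp. The rank correlation of piRNA genes and reproducible calls over bins, 0.40, changed sign to -0.37 in the thresholded list and was -0.0244 to 0.0122 with 1 replicate left out. It was 0.33 in the other ranked list, 0.22 and 0.62 at IDR limits of 0.01 and 0.1 and 0.26 with narrower bins, and, in settings chosen after seeing the data, 0.37 without the first bin and 0.28 with each replicate call counted once. The rank correlation of local piRNA genes and signal, -0.07, was -0.118 to -0.0770 with 1 replicate left out, -0.0424 within 10 kb and -0.0435 among reproducible calls. The ratio of the reproducible share at 21 to 50 piRNA ends to that at 0, 0.39, and all its settings were added after seeing the data. It was 0.25 to 0.29 with 1 replicate left out, 0.53 at an IDR limit of 0.1, 0.35 without short structured RNA genes, 0.31 without the first bin, and 0.35 and 0.61 below and above the median GC content. The cause of these moves was not tested. No paired analysis was possible because there was 1 group.

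The 3350 members rest on 2896 distinct calls of replicate 1 and 2895 of replicate 2, so members are not independent. With each replicate call counted once, 289 of 2692 members and 105 of 2358 calls of the comparison region were reproducible. The highest IDR between the true replicates among the 181 entries of the thresholded list was 0.627, while the 180 entries of the conservative list reached 0.00989.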

Other observations

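Position relative to protein-coding genes gave a further division of the members. Of 966 members with the summit in a protein-coding exon 99 were reproducible (10.2%, 8.41 to 12.3), of 1124 in an intron 73 (6.495%, 5.13 to 8.10), and of 1260 outside protein-coding genes 143 (11.4%, 9.65 to 13.2). In the comparison region these shares were 3.59%, 2.60% and 5.51%. The median signal of reproducible members was 75.3 in exons, 84.2 in introns and 106 outside genes. Members lay a median of 577 bp apart, against 586 bp in the comparison region, while reproducible members lay 2878 bp apart, against 9979 bp. The longest stretch between neighbouring reproducible members was 87700 bp in the cluster and 157381 bp in the comparison region.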
